A study of Mus musculus with 2040 samples.

Results

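The genes described here are the 8 genes of glutamate uptake and the glutamine cycle Slc1a2, Slc1a3, Slc1a6, Slc7a11, Glul, Glud1, Slc38a3 and Slc38a1, taken by name from the 32245 gene columns of a table of single-cell expression values. All 8 were found. The study sorted single cells that carried the fluorescent protein SYFP2 from brains of C57Bl/6J mice, each mouse given 1 adeno-associated virus (AAV) in which a named enhancer or promoter drives the reporter. It holds cells of 47 mice and 30 vectors: 1785 cells of 41 mice from VISp (primary visual cortex), cells of 4 mice from MB/HB (midbrain and hindbrain) and 81 cells of 2 mice from CBX (cerebellar cortex). Every cell of the study was sorted on reporter signal, so each group holds the cells in which a vector was active and not an unselected sample of the tissue. The series asks which glial populations such vectors reach, and the levels of these genes describe the cells that were reached.

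Glutamate released at synapses is cleared mostly by astrocytes. They take it up through the sodium-coupled transporters GLT-1 (Slc1a2) and GLAST (Slc1a3), turn it into glutamine with glutamine synthetase (Glul) and pass the glutamine out through carriers such as SNAT3 (Slc38a3). Neurons take glutamine up, SNAT1 (Slc38a1) being one of the carriers, and make new transmitter from it. EAAT4 (Slc1a6) is known as the transporter of Purkinje cells, glutamate dehydrogenase (Glud1) links glutamate to the citric acid cycle in mitochondria, and xCT (Slc7a11) exchanges glutamate for cystine, a building block of glutathione. In the cerebellar cortex, Bergmann glia are known for abundant GLAST.

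Cells were sorted into classes by clustering on genes other than these 8 and other than the pathway genes described further on, and the classes carry names from marker lists. Groups compared were VISp astrocyte-like cells (739 cells of 19 mice, 12 vectors), MB/HB astrocyte-like cells (32 to 41 cells of each of 4 mice, given eHGT_381h or MGT_E160m, 2 mice each), CBX astrocyte-like cells (81 cells of 2 mice, both given eHGT_375m), VISp oligodendrocyte-like cells (922 cells of 22 mice, 15 vectors) and VISp neuron-like cells (61 cells of 3 mice, given eHGT_374m or MBP_promoter). Each vector was given to mice of a single tissue, so that differences between tissues cannot be told apart from differences between vectors. The summed level of the 10 astrocyte markers was 13792 to 19310 CPM (the reads of a gene scaled to the total of its cell) in VISp astrocyte-like cells, 15029 to 18779 in MB/HB, 10847 to 11161 in CBX, 9.87 to 255.1 in oligodendrocyte-like and 25.5 to 44.4 in neuron-like cells. Cells had a median of 434102 reads (57873 to 1455022), and the median per cell was 431572 reads in VISp, 411220 in MB/HB and 375425 in CBX astrocyte-like cells. RNA of another class (over 50% of the markers of another list detected) was seen in 4.47% of VISp, 16.1% of MB/HB and 39.5% of CBX astrocyte-like cells. The summed level of 12 oligodendrocyte markers was 171.1 to 1311 CPM in VISp, 839 to 6248 in MB/HB and 1935 to 2224 in CBX astrocyte-like cells. In CBX, most of that sum was 1 gene, Cnp, at 1782 to 2018 CPM against 164.1 to 429.9 in VISp, while Mbp, the myelin basic protein gene, was at 76.3 to 113.2 CPM in CBX, 6.18 to 774.7 in VISp and 185.1 to 3864 in MB/HB. The part of that RNA in the tissue differences below was not tested. Results of the 8 genes that change without those cells are given as such. No such result is given for the pathway genes described further on.

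A level is the mean CPM over the cells of a class in 1 mouse, and the mouse is the replicate. Differences are differences of log2(mean CPM + 1) fitted with limma, "called" means a Benjamini-Hochberg adjusted p under 0.05 over all genes tested, and the fold stated on this scale understates changes of low genes. The tissues of a fit, and likewise the classes, share a single estimate of the spread of each gene. A standard error (SE) or p-value therefore does not measure the spread among the mice of a small group alone.

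In VISp astrocyte-like cells, Slc1a3 and Slc1a2 were the highest of the 8 genes in CPM. Slc1a3 lay between 4172 and 6634 CPM over the 19 mice (median 5309, mean 5311 ± 607.3 SD) and Slc1a2 between 3701 and 5757 (median 4620, mean 4644 ± 543.1). Glul followed at 1600 to 2723 (median 2024, mean 2039.8 ± 338.9), then Slc38a3 at 569.04 to 1333 (median 858, mean 885 ± 245.4), Glud1 at 273.5 to 527.7 (median 377.02, mean 390.6 ± 66.2) and Slc7a11 at 179.3 to 560.2 (median 326.7, mean 335.6 ± 104.8). The last pair was far lower, with Slc1a6 at 0 to 13.4 CPM (median 4.73) and Slc38a1 at 0 to 11.2 (median 0.464). A read of Slc1a2, of Slc1a3 and of Glul was found in every VISp astrocyte-like cell. Of the abundant genes, Slc7a11 and Slc38a3 spread most between mice relative to their means.

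Because reads of these libraries come from whole transcripts, levels of different genes were compared per kilobase of merged exon. On that scale, Slc1a3 (622 ± 71.1 CPM per kilobase, SD, n = 19) and Glul (613.8 ± 101.99) led the VISp astrocyte-like cells, with ranges between mice that overlap. Slc1a2 (353.6 ± 41.4), Slc38a3 (167.7 ± 46.5), Glud1 (92.8 ± 15.7), Slc7a11 (24.1 ± 7.53), Slc1a6 (2.30 ± 2.04) and Slc38a1 (0.113 ± 0.195) followed in that order. Annotated exon length differs widely among them, from 2.15 kilobases for Slc1a6 to 17.2 for Slc38a1, and includes exons of transcripts that these cells may not use.

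**Figure D1:**
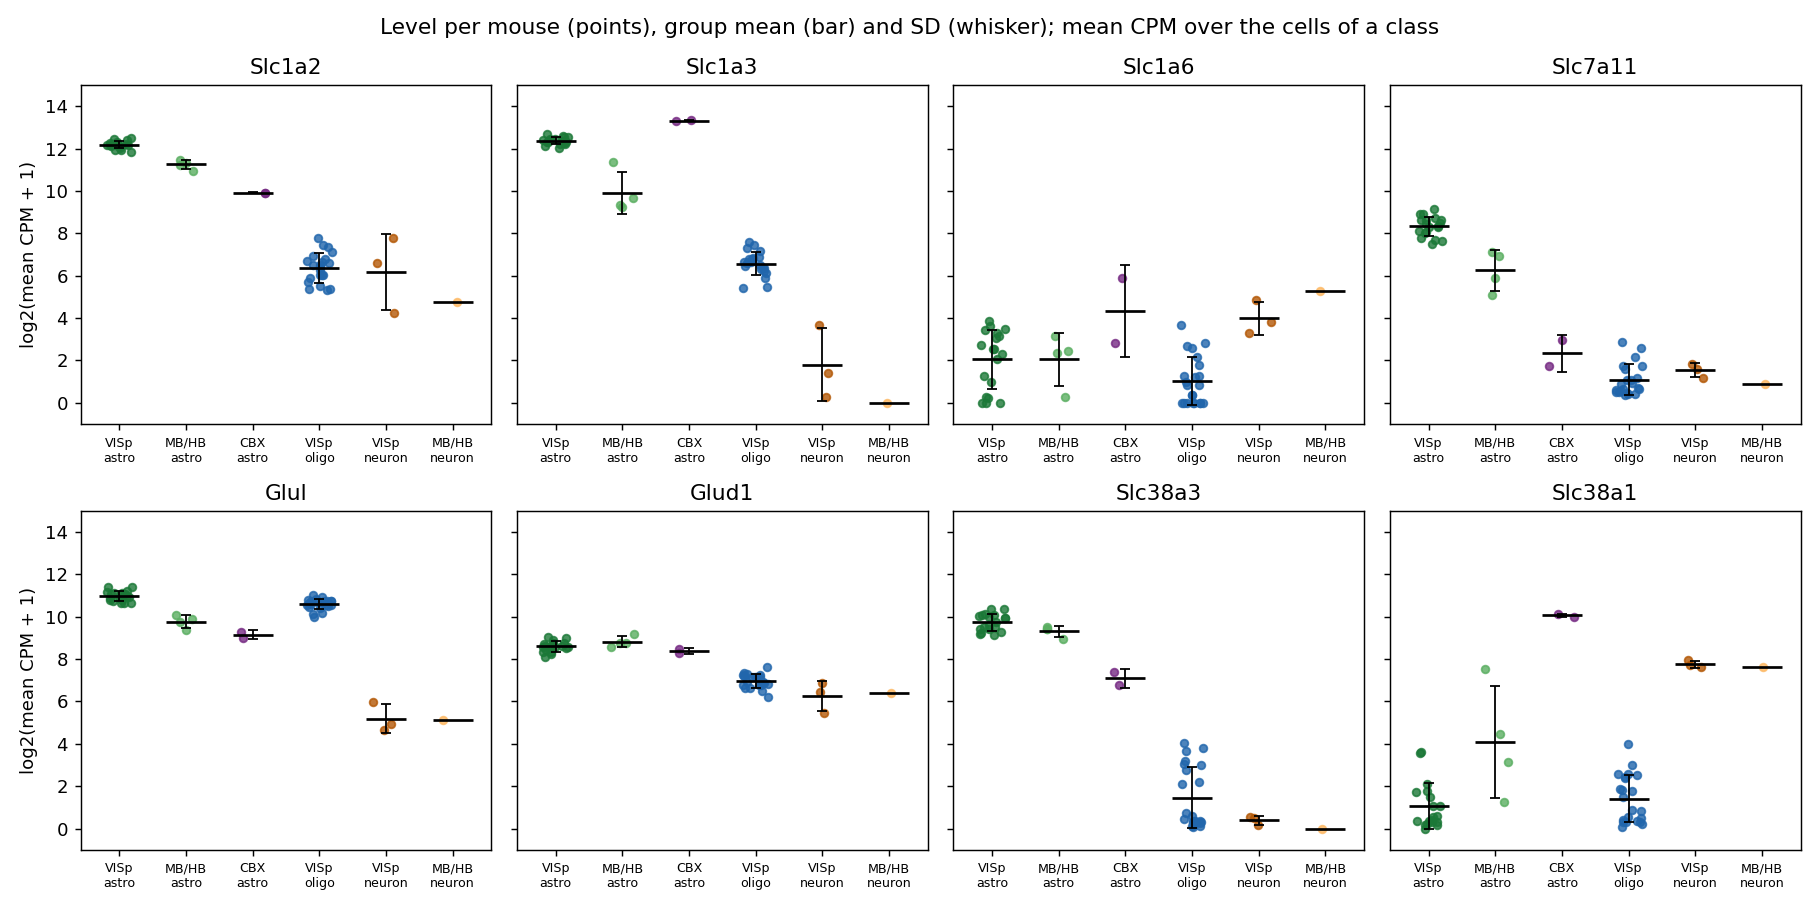
Level of each of the 8 genes as log2(mean CPM + 1) per mouse (points) in 6 groups of cells, with the group mean (bar) and SD (whisker, where a group has more than 1 mouse); astro, oligo and neuron stand for astrocyte-like, oligodendrocyte-like and neuron-like cells. Slc38a1 is near 0 in VISp astrocyte-like cells and high in CBX astrocyte-like and neuron-like cells, and Glul is nearly as high in VISp oligodendrocyte-like as in VISp astrocyte-like cells.

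In the GENCODE M21 annotation of GRCm38, the 8 genes lie at 8 separate places on 7 chromosomes. Slc1a2 lies at chr2:102658659-102790784 on the plus strand, Slc1a3 at chr15:8634124-8710764 (minus), Slc1a6 at chr10:78780496-78814765 (plus), Slc7a11 at chr3:49892526-50443614 (minus), Glul at chr1:153899944-153909723 (plus), Glud1 at chr14:34310727-34345265 (plus), Slc38a3 at chr9:107650634-107669530 (minus) and Slc38a1 at chr15:96571418-96642913 (minus). Genes on the opposite strand overlap Slc1a2 (Gm13872), Glul (Teddm2) and Slc7a11 (Gm37854, and the pseudogenes Gm37826 and Gm2345). No statement that counting used strand was found in the sources used here. Reads of these opposite-strand neighbours therefore cannot be told apart from those of the 3 genes. Genes on the same strand, which counting by strand would not separate, overlap Slc1a3 (Gm37310), Glul (Mir8114) and Slc7a11 (Gm37692 and Gm37498).

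RefSeq promoter windows on GRCm38.p6 were matched for 6 of the 8 genes. The 250 bases before the annotated start are shown for Slc1a3, Slc7a11 and Glul, a transporter, an exchanger and an enzyme whose levels take different orders over the groups: Slc1a3 was higher in CBX than in VISp astrocyte-like cells, Slc7a11 fell to a few CPM there, and Glul alone of the 3 stayed high in oligodendrocyte-like cells. Capitals mark matches, on either strand, to the TATA box TATAAA, the GC box GGGCGG, the CCAAT box CCAAT, the core of the amino acid response element TGATGNAA and the core of the antioxidant response element TGACNNNGC.
Slc1a3, chr15:8710808-8711057, minus strand: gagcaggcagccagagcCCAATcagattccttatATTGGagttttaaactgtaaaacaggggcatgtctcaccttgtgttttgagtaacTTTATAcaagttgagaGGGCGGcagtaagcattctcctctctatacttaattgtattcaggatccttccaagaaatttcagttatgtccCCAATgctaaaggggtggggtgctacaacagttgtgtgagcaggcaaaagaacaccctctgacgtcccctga
Glul, chr1:153899679-153899928, plus strand: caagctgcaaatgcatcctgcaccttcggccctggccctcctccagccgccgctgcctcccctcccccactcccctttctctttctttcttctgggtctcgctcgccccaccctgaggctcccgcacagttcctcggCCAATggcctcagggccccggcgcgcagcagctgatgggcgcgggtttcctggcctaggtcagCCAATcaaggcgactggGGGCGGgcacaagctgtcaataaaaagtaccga
Slc7a11, chr3:50443614-50443863, minus strand: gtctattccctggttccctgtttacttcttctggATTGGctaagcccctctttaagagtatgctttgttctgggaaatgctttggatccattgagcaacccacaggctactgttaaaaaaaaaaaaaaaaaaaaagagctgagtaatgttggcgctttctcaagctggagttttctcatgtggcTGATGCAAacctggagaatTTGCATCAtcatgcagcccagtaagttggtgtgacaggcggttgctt
The Slc7a11 window holds 2 matches to TGATGNAA, 1 on each strand, and 3.45% of the 32851 windows of the table hold at least 1. The Slc1a3 window holds 3 matches to CCAAT, 1 to GGGCGG and 1 to TATAAA, and the Glul window 2 to CCAAT and 1 to GGGCGG. Among all windows, 33.8% hold CCAAT, 32.7% GGGCGG, 12.4% TATAAA and 10.16% TGACNNNGC. The windows of Slc1a3 and Slc7a11 are poor in CpG, with 2 each, against 15 in the Glul window and a median of 6 over the table. GC content was 44.8% for Slc1a3, 43.2% for Slc7a11 and 64.8% for Glul, beside a median of 52.4%. A match is a description of the letters, and no binding was measured.

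Within VISp, no difference of these genes between vectors passed the test. Among the astrocyte-like cells of mice whose vector had at least 2 mice (14 mice, 7 vectors), limma's F-test called 0 of the 8 genes and 0 of 3507 genes in all (0%), with 0 of the 8 and 4.68% of all genes at an unadjusted p under 0.05. Adjusted p was 0.966 to 0.999 for the 8 genes. Among oligodendrocyte-like cells (12 mice, 5 vectors), 0 of the 8 genes were called beside 0.0318% of 3142 genes, and Slc38a1 (unadjusted p = 0.0201) and Slc1a3 (0.0204) had the lowest values, both with an adjusted p of 0.602 in limma. With 2 or 3 mice per vector, these fits do not show that vectors label cells of equal levels.

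Between tissues, astrocyte-like cells differed in nearly every step of the cycle. CBX cells had about 2 times the Slc1a3 of VISp cells and 20.6% of their Slc1a2, 27.9% of their Glul, 15.5% of their Slc38a3 and 1.36% of their Slc7a11, while Slc38a1 went from near 0 to over 1000 CPM. MB/HB cells had less Slc1a3, Slc7a11, Glul and Slc1a2 than VISp cells. In limma, 6 of the 8 genes were called for CBX against VISp (2 higher, 4 lower), beside 11.8% of 3775 genes tested (5.3% higher, 6.52% lower). For MB/HB against VISp, 5 were called (1 higher, 4 lower) beside 13.2% of all genes (6.57% higher, 6.6% lower), and for CBX against MB/HB 5 (2 higher, 3 lower) beside 10.1% (4.48% higher, 5.64% lower). The 3 comparisons share mice: the VISp mice enter both comparisons with VISp, and CBX and MB/HB mice each enter 2. The 8 genes had a median log2 difference of -1.03, -0.67 and -0.53 in the 3 comparisons in that order, beside -0.02, -0.05 and 0.02 over all genes tested. The 8 genes were chosen with earlier results of these data known. Their counts and medians beside all genes, here and between classes, are therefore a description and no test of the pathway.

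**Figure D2:**
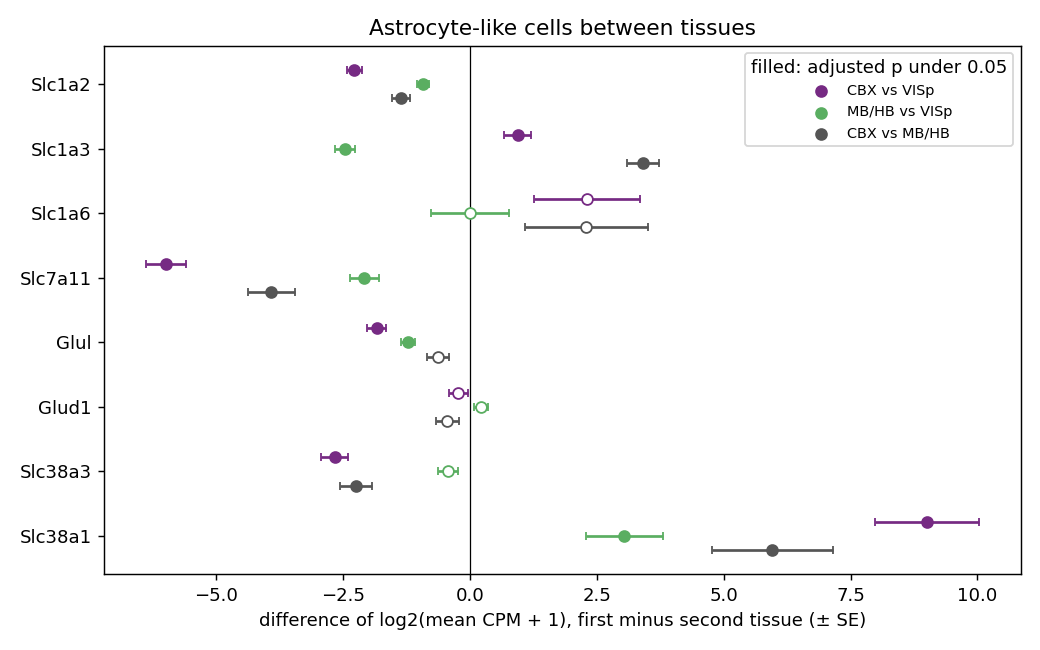
Difference of log2(mean CPM + 1) in astrocyte-like cells for the 8 genes, first minus second tissue, with its standard error from limma (2 CBX, 4 MB/HB and 19 VISp mice); filled points have an adjusted p under 0.05. Slc1a3 lies right of 0 for CBX against VISp (0.95) and left of 0 for MB/HB against VISp (-2.46), and Slc38a1 (9.01) and Slc7a11 (-5.98) reach furthest from 0.

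Slc1a2, the main transporter of the forebrain, had its highest levels in VISp astrocyte-like cells. It stood at 946.5 and 966.8 CPM in the 2 CBX mice and at 1993, 2423, 2572 and 2844 in the 4 MB/HB mice. The tissues did not overlap, all CBX mice lying below all MB/HB mice and these below all VISp mice. Slc1a2 was lower by 2.27 ± 0.15 (SE) on the log2 scale in CBX than in VISp (limma, adjusted p = 4.18e-13) and lower by 1.35 ± 0.17 in CBX than in MB/HB (adjusted p = 9.85e-07). In MB/HB against VISp, its log2 difference was -0.92 ± 0.11 (adjusted p = 1.81e-07). A read of it was found in 97.5% ± 0.216 (SD, n = 2) of CBX and 98.6% ± 1.64 (n = 4) of MB/HB astrocyte-like cells.

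Slc1a3, the transporter that Bergmann glia are known for, ran in the other direction in CBX. Its level was 10026 and 10348 CPM in the 2 CBX mice, above all 19 VISp mice. In MB/HB it was 604.6, 650.8, 818.7 and 2593 CPM, below all VISp mice. The log2 difference was 0.95 ± 0.27 for CBX against VISp (limma, adjusted p = 0.0155). That difference no longer passed the test when either CBX mouse was left out, with log2 differences of 0.93 and 0.97 and adjusted p-values of 0.183 and 0.161. For MB/HB against VISp, the difference was -2.46 ± 0.20 (adjusted p = 6.19e-11), and for CBX against MB/HB 3.41 ± 0.31 (adjusted p = 1.49e-09). Among MB/HB cells, the share with a read of Slc1a3 was 88.1% ± 7.35 (SD, n = 4), and it was 100% in both other tissues. Thinned to 50000 reads per cell, the MB/HB share was 84.6% ± 8.26.

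The 2 transporters therefore stood in different proportion in the 3 tissues. The ratio of Slc1a2 to Slc1a3 CPM, a ratio of levels that carries the 2 genes' lengths, was 0.558 to 1.26 over the 19 VISp mice. It was 0.0915 and 0.0964 in the CBX mice, and 0.935, 3.30, 3.47 and 3.95 in the MB/HB mice. No CBX value came near those of the other tissues, and 1 MB/HB mouse, MouseID-615516, lay among the VISp mice. Without 6 of its cells, described further on, its ratio was 3.58, inside the range of the other MB/HB mice. VISp oligodendrocyte-like cells lie along the line of equal CPM in the plot of Slc1a2 against Slc1a3, at far lower levels of both.

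**Figure D3:**
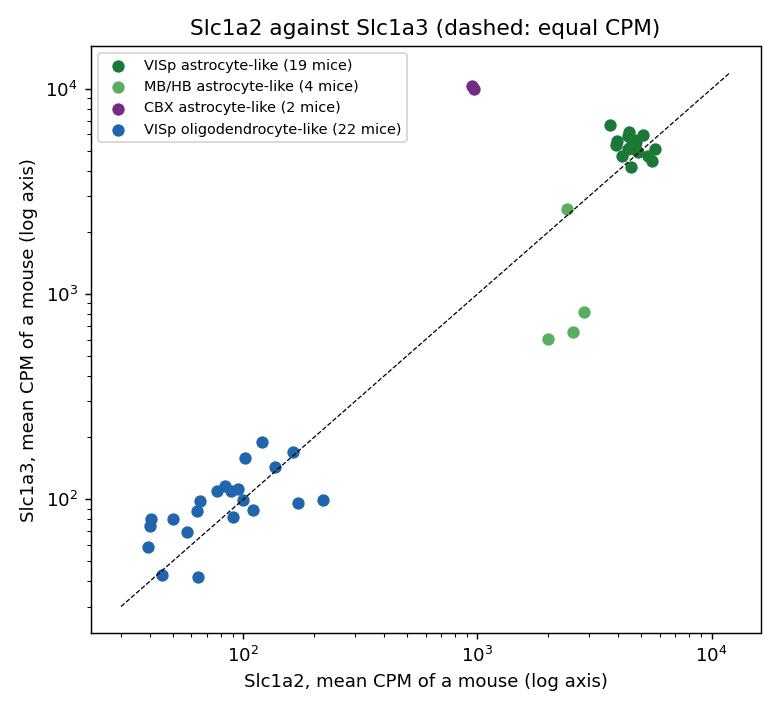
Slc1a2 (x axis) against Slc1a3 (y axis), mean CPM per mouse on log axes, in astrocyte-like cells of VISp (19 mice), MB/HB (4) and CBX (2) and in VISp oligodendrocyte-like cells (22); the dashed line marks equal CPM. The CBX mice lie above the line at 10026 and 10348 CPM of Slc1a3, and 3 of the MB/HB mice lie below it.

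The glutamine carriers changed places between tissues. Slc38a1, a glutamine importer best known from neurons, reached 1020 and 1112 CPM in the CBX mice, beside 0 to 11.2 in the 19 VISp mice and 1.38, 7.79, 20.9 and 186.3 in the MB/HB mice. CBX mice did not overlap with either tissue, and the MB/HB mice overlapped with VISp. The log2 difference was 9.01 ± 1.02 for CBX against VISp (limma, adjusted p = 5.13e-08) and 5.96 ± 1.19 for CBX against MB/HB (adjusted p = 6.62e-04). A read of Slc38a1 was found in 98.8% ± 1.64 (SD, n = 2) of CBX cells, 19.3% ± 4.12 (n = 4) of MB/HB cells and 9.91% ± 5.66 (n = 19) of VISp cells, and at 50000 reads per cell in 97.7% ± 3.29, 9.70% ± 7.44 and 2.49% ± 2.85. The 8 neuron markers summed to 141.6 to 299.8 CPM in the CBX mice, inside the range of 37.96 to 397.7 in VISp astrocyte-like cells, and to 11698 to 15289 in VISp neuron-like cells. The 4 granule neuron markers summed to 27.8 to 56.8 CPM in CBX, above the 0 to 24.3 of VISp astrocyte-like cells, and their part in the Slc38a1 level was not tested. Slc38a1 itself was 194.6 to 243.6 CPM in the VISp neuron-like cells, below both CBX mice. No CBX cell was classed as neuron-like, and the part of neuron RNA in the CBX level of Slc38a1 was not tested.

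The difference of Slc38a1 in MB/HB against VISp, 3.05 ± 0.75 on the log2 scale (limma, adjusted p = 0.00472), was not called without 1 of the 4 mice. Without MouseID-615516 the difference was 1.90 with an adjusted p of 0.0879. Without cells carrying RNA of another class it was 2.42 (adjusted p = 0.0529), and without the 6 cells described next 1.83 (adjusted p = 0.0509).

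Those 6 cells come from MouseID-615516, given eHGT_381h, and fell into the cluster that holds 78 of the 81 CBX astrocyte-like cells. The cluster was made without these genes, its leading genes include Gdf10, Hopx and Timp4, and it held no VISp cell. In the 6 cells, Slc38a1 was 842 to 1704 CPM (median 1139) and Slc1a3 9189 to 15716 (median 13971), against medians of 0 and 571.98 in the other 34 astrocyte-like cells of the same mouse. Slc1a2 went the other way, at a median of 754.8 against 2683 CPM, and Slc7a11 was at 0 in 4 of the 6 cells. The 78 CBX cells of the cluster had medians of 1128 CPM for Slc38a1, 10616 for Slc1a3 and 932 for Slc1a2. On each of these 3 genes, the 6 cells lay within the range of the 78 CBX cells. These values are a description with no test, and the dissection label of the 6 cells is MB/HB.

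**Figure D4:**
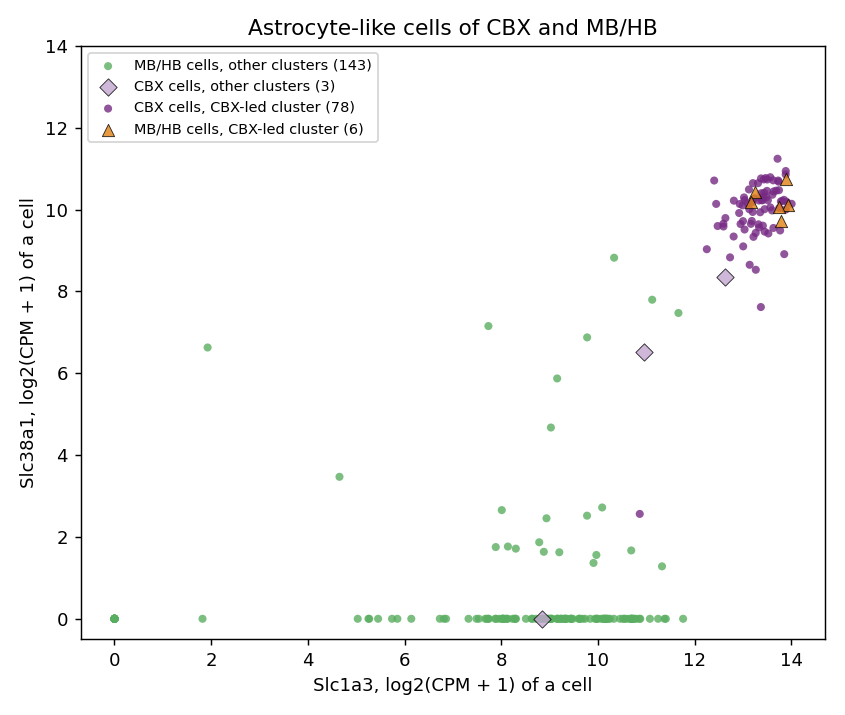
Slc1a3 (x axis) against Slc38a1 (y axis) as log2(CPM + 1) in each astrocyte-like cell of CBX and MB/HB, marked by tissue and by whether the cell fell in the cluster that holds most CBX cells. The 6 MB/HB cells of that cluster (triangles) lie among its 78 CBX cells, and most of the other MB/HB cells lie at 0 for Slc38a1.

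Slc38a3, the glutamine exporter of astrocytes, was at 108.3 and 166.8 CPM in the CBX mice and at 485.2, 677.06, 680.8 and 731.6 in the MB/HB mice. The CBX mice lay below every other astrocyte-like mouse, and the MB/HB mice overlapped with VISp. Slc38a3 was lower in CBX by 2.66 ± 0.27 on the log2 scale than in VISp (limma, adjusted p = 6.13e-09) and by 2.23 ± 0.31 than in MB/HB (adjusted p = 4.96e-06). For MB/HB against VISp, the difference of -0.42 ± 0.20 was not called (adjusted p = 0.181). A read of it was found in 52.6% and 83.7% of the cells of the 2 CBX mice. Per kilobase of exon, CBX astrocyte-like cells had 26.1 ± 7.84 CPM of Slc38a3 and 61.8 ± 3.77 of Slc38a1 (SD, n = 2), the reverse of the order in VISp.

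Slc7a11, the cystine and glutamate exchanger, had the largest fitted fall of the 8 genes in both CBX comparisons. It was at 2.30 and 6.80 CPM in the CBX mice and at 32.5, 57.9, 120 and 140 in the MB/HB mice, and the 3 tissues did not overlap. The log2 difference was -5.98 ± 0.39 for CBX against VISp (limma, adjusted p = 4.32e-13), -2.08 ± 0.29 for MB/HB against VISp (adjusted p = 3.18e-06) and -3.91 ± 0.46 for CBX against MB/HB (adjusted p = 2.03e-07). A read was found in 13.6% ± 0.563 (SD, n = 2) of CBX, 41.6% ± 16.8 (n = 4) of MB/HB and 75.1% ± 9.48 (n = 19) of VISp cells, and at 50000 reads per cell in 6.27% ± 2.29, 36.4% ± 14.5 and 70.4% ± 9.10. Slc3a2, the heavy chain with which xCT is assembled, was lower in CBX than in VISp as well (log2 difference -1.29 ± 0.22, adjusted p = 7.88e-05).

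Of the enzymes, Glul differed and Glud1 did not pass the test. Glul was at 511.9 and 625.3 CPM in the CBX mice and at 655.9, 851.95, 954.1 and 1079.6 in the MB/HB mice, all below the lowest VISp mouse at 1600. Its log2 difference was -1.83 ± 0.19 for CBX against VISp (limma, adjusted p = 6.60e-09), -1.21 ± 0.14 for MB/HB against VISp (adjusted p = 7.46e-08) and -0.62 ± 0.22 for CBX against MB/HB (adjusted p = 0.0673). The last was called without the cells carrying RNA of another class (-0.62, adjusted p = 0.0485) and without MouseID-615516 (-0.76, adjusted p = 0.0208). Glud1 was at 310.4 and 351.5 CPM in CBX and at 374.1, 429.3, 433.9 and 583.1 in MB/HB, inside the VISp range of 273.5 to 527.7 except for the highest MB/HB mouse. Its log2 difference from VISp was -0.22 ± 0.20 in CBX (adjusted p = 0.614) and 0.22 ± 0.14 in MB/HB (adjusted p = 0.379).

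Slc1a6, the Purkinje cell transporter, was low in all astrocyte-like groups. It was at 6.04 and 58.3 CPM in the 2 CBX mice and at 0.197, 4.13, 4.50 and 7.79 in the MB/HB mice. The log2 difference of 2.31 ± 1.04 for CBX against VISp was not called (limma, adjusted p = 0.176), and it was called at 1.09 (adjusted p = 2.74e-04) when log2 values of single cells were averaged. In the CBX mouse with 58.3 CPM, 16 of 43 cells had a read, and the mean was 31.5 CPM without the 1 highest cell (1184 CPM). Pcp2, a defining Purkinje cell marker, was at 69.1 CPM in that mouse and at 9.42 in the other, and at 4.25 or less in each VISp mouse. A read of Pcp2 was found in 32 of the 43 cells of the first mouse and 5 of the 38 of the second, and a read of both genes in 10 and 0 cells. The 5 Purkinje markers, some of which astrocytes also express, summed to 155.8 to 206.3 CPM in CBX, 88.03 to 144.6 in MB/HB and 103.7 to 197.2 in VISp astrocyte-like cells. Their part in the Slc1a6 level was not tested.

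In VISp, oligodendrocyte-like cells kept glutamine synthetase and had little of the rest of the uptake machinery. Glul was at 1016 to 2063 CPM over the 22 mice (median 1612, mean 1569 ± 257.8 SD), 76.9% of the astrocyte-like mean, and a read was found in every cell. Slc1a2 was at 39.1 to 219.1 CPM (median 85.97), Slc1a3 at 41.8 to 190.7 (median 97.2) and Glud1 at 73.2 to 195.7 (median 125.96). Slc38a3 (0.0482 to 15.3, median 0.448), Slc7a11 (0.284 to 6.38, median 0.762), Slc1a6 (0 to 11.7, median 0.796) and Slc38a1 (0.0673 to 14.9, median 1.32) were near 0. The ranges of Glul, Slc1a6 and Slc38a1 overlapped with those of VISp astrocyte-like cells, and those of the other genes did not. The share of all genes with separate ranges was not determined, so this separation is a description and not a trait of these genes. In limma, 7 of the 8 genes were called lower and 0 higher. Of 3887 genes, 58.6% were called (21.9% higher, 36.7% lower), so that most genes tested were called. The classes were themselves made from genes other than the 8, so the share of all genes called between classes is a description. The 8 genes, chosen with earlier results known, had a median log2 difference of -3.71, beside -0.20 over all genes.

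The falls were 8.28 ± 0.32 on the log2 scale for Slc38a3 (adjusted p = 6.83e-28), 7.25 ± 0.20 for Slc7a11 (4.87e-34), 5.80 ± 0.19 for Slc1a2 (1.13e-30), 5.80 ± 0.17 for Slc1a3 (3.75e-33) and 1.62 ± 0.10 for Glud1 (1.84e-19), all from limma. Slc1a2 and Slc1a3 were at 1.98% and 1.89% of their astrocyte-like means, and the summed astrocyte markers at 0.650%. A read was found in 54.5% ± 11.1 (SD, n = 22) of oligodendrocyte-like cells for Slc1a2 and in 48.7% ± 7.37 for Slc1a3, and in 7.53% ± 3.32 for Slc38a3. At 50000 reads per cell these shares were 46.7% ± 11.5, 43.1% ± 6.35 and 2.58% ± 2.97. How much of the Slc1a2 and Slc1a3 reads came from astrocyte RNA was not tested.

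For Glul, the sign of the small difference depends on the scale. On CPM the log2 difference was -0.38 ± 0.09 (limma, adjusted p = 1.77e-04), with ranges that overlap. With values centred on the median gene of each mouse, which adds 0.61 to every gene of this comparison, it was 0.23 (adjusted p = 0.0269), and with smaller minimum cell numbers it was -0.38 with an adjusted p of 0.125. The Slc1a6 difference of -1.01 ± 0.38 (adjusted p = 0.0200) was not called with centred values (-0.40, adjusted p = 0.349), without cells carrying RNA of another class (-0.72, adjusted p = 0.115) or with averaged single-cell log2 values (-0.17, adjusted p = 0.121). Slc38a1 was not called on CPM (0.37 ± 0.34, adjusted p = 0.356) and was called with centred values (0.97, adjusted p = 0.0089).

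Neuron-like cells of VISp had the opposite pattern of carriers. Slc38a1 was at 194.6, 209.6 and 243.6 CPM in the 3 mice, above all mice of both glial classes, and Slc1a6 at 8.90, 13.2 and 27.7. Glul was at 24.4, 29.3 and 61.02 CPM, Glud1 at 42.7, 86.5 and 114.7, Slc1a2 at 17.8, 94.7 and 215.5, Slc1a3 at 0.213, 1.69 and 11.7, Slc38a3 at 0.112, 0.396 and 0.437 and Slc7a11 at 1.28, 2.03 and 2.62. The highest Slc1a2, Slc1a3 and Glul came from the eHGT_374m mouse MouseID-614201, which also gave astrocyte-like cells, and the other 2 mice were given MBP_promoter. In limma, 8 of the 8 genes were called against astrocyte-like cells (2 higher, 6 lower), beside 48.4% of 3887 genes (28.8% higher, 19.6% lower). Their median log2 difference was -5.89, beside 0.13 over all genes, again a description of chosen genes.

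Slc38a1 was higher than in astrocyte-like cells by 6.70 ± 0.66 on the log2 scale (adjusted p = 3.56e-12), and a read was found in 98.4% ± 2.75 (SD, n = 3) of the neuron-like cells. Slc1a3 fell by 10.57 ± 0.33 (4.96e-31), Slc38a3 by 9.35 ± 0.64 (1.41e-17), Slc7a11 by 6.78 ± 0.39 (3.72e-20), Slc1a2 by 5.98 ± 0.38 (1.14e-18), Glul by 5.79 ± 0.17 (6.91e-32) and Glud1 by 2.34 ± 0.20 (4.90e-14), all in limma. These SEs rest on the spread shared with the glial classes, which have more mice, and not on the neuron-like mice alone. By mean CPM, Slc1a2 and Slc1a3 thus parted: Slc1a2 was at 2.35% of its astrocyte-like mean and Slc1a3 at 0.0853%, beside 0.222% for the summed astrocyte markers. The highest value of both genes came from the mouse given eHGT_374m, and the levels of each gene differed widely among the mice. The Slc1a6 difference of 1.95 ± 0.75 (adjusted p = 0.0284) was lost at a pseudocount of 0.1 CPM (2.79, adjusted p = 0.117) and without MouseID-638254 (2.03, adjusted p = 0.0689) or MouseID-651227 (1.52, adjusted p = 0.186). The neuron-like cells are those that eHGT_374m or MBP_promoter labelled and are not a sample of VISp neurons.

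Against oligodendrocyte-like cells, 5 of the 8 genes were called in neuron-like cells (2 higher, 3 lower), beside 46.9% of 3887 genes (32.2% higher, 14.7% lower). Slc38a1 was higher by 6.34 ± 0.66 on the log2 scale (limma, adjusted p = 1.42e-11) and Slc1a6 by 2.95 ± 0.74 (adjusted p = 8.08e-04). Glul fell by 5.41 ± 0.17 (adjusted p = 5.89e-31) and Slc1a3 by 4.78 ± 0.33 (1.50e-17). The Glud1 difference of -0.72 ± 0.20 (adjusted p = 0.0022) was lost without MouseID-614201 (-0.32, adjusted p = 0.259) and with smaller minimum cell numbers (-0.39, adjusted p = 0.0772), and turned to 1.33 (adjusted p = 0.0043) with averaged single-cell log2 values. Slc1a2 (-0.18 ± 0.38, adjusted p = 0.768), Slc38a3 (-1.07 ± 0.63, adjusted p = 0.169) and Slc7a11 (0.47 ± 0.39, adjusted p = 0.360) were not called. With smaller minimum cell numbers, which bring in more mice with few neuron-like cells, Slc7a11 (1.94, adjusted p = 1.55e-04) and Slc1a2 (1.51, adjusted p = 0.0047) were called higher, and with centred values Slc38a3 was called lower (-1.69, adjusted p = 0.0246). In MB/HB, 12 neuron-like cells of 1 mouse had 195.6 CPM of Slc38a1, 37.9 of Slc1a6, 33.6 of Glul, 26.2 of Slc1a2 and 0 of Slc1a3 and Slc38a3, and 7 oligodendrocyte-like cells of 1 mouse had 2117 CPM of Glul and 0.617 of Slc38a1.

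Ordered over the 5 groups by mean CPM, Slc1a2 ran from VISp over MB/HB to CBX astrocyte-like cells. Neuron-like and then oligodendrocyte-like cells followed, overlapping, and their order was the reverse on the log2 scale. Slc1a3 ran from CBX over VISp and MB/HB astrocyte-like to oligodendrocyte-like and neuron-like cells, and no neighbours in that order overlapped. Glul ran from VISp astrocyte-like over oligodendrocyte-like to MB/HB and CBX astrocyte-like and then neuron-like cells. Oligodendrocyte-like cells overlapped there with VISp and, by the lowest mouse, with MB/HB. Slc38a1 ran from CBX astrocyte-like over neuron-like to MB/HB astrocyte-like cells, with VISp oligodendrocyte-like and astrocyte-like cells overlapping near 0. Slc38a3 and Slc7a11 both ran from VISp over MB/HB to CBX astrocyte-like cells and then to the other classes. For Slc38a3, the MB/HB mice overlapped with VISp. For Slc7a11, the CBX mice overlapped with oligodendrocyte-like and neuron-like cells at a few CPM. Glud1 overlapped among the 3 astrocyte-like groups and was lower in the other classes, and Slc1a6 ran from CBX astrocyte-like over neuron-like, VISp astrocyte-like and MB/HB astrocyte-like to oligodendrocyte-like cells, with each pair of neighbours in that order overlapping. The neuron-like mice lay above all MB/HB astrocyte-like mice for Slc1a6.

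Over the 50 values of a mouse and class in these 5 groups, the genes most like each member in pattern were named by Pearson's r. The search covered 3984 genes of a panel of 5426 of the 32245 gene columns, so closer genes outside it would be missed. It is a description, since mice of a class share that class. Slc38a3 was followed by Tlr3 (r = 0.973), Gja1 (0.970) and Prodh (0.964), Slc1a3 by Mfge8 (0.969) and Mlc1 (0.959), and Slc1a2 by Fgfr3 (0.964), Tlr3 (0.964) and Pdgfrb (0.963). Slc7a11 was most like Ppp1r3g (0.964), Cyp4f15 (0.951) and, of the 8 genes themselves, Slc1a2 (0.950). Glud1 was most like Slc7a2 (0.934), Mt2 (0.929) and Tlr3 (0.928), and Glul like Pmp22 (0.927), Gpt (0.908) and S100a16 (0.905). Slc38a1 stood closest to Efnb2 (0.822), Cacng5 (0.794) and Slc7a8 (0.781). No gene of the panel came near Slc1a6, the highest being Gm1673 (0.599), Mrps18a (0.591) and Uqcrc1 (0.587). Among the 8 genes, Slc38a1 and Glul ran most clearly against each other (r = -0.706).

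The other genes of the pathway, 60 in 6 lists, were compared in the same fits. For CBX against VISp, 4 were called higher and 9 lower of 58 tested, for MB/HB against VISp 7 and 9, and for CBX against MB/HB 3 and 7. The shares of all genes called were 11.8%, 13.2% and 10.1%. These lists, too, were chosen with earlier results of these data known. Of the 7 other glutamate transporters, Slc1a4, a neutral amino acid carrier of the same family, was lower in CBX (-2.20 ± 0.39, SE, log2 difference) and in MB/HB (-1.48 ± 0.29) than in VISp, and Slc17a7, a vesicular glutamate transporter, was lower in MB/HB (-2.99 ± 0.78). The list's median was -0.90 for CBX and -0.35 for MB/HB against VISp. Slc17a7 was low in both tissues, with a median of 12.2 CPM (0 to 54.5) over VISp and 0 (0 to 1.05) over MB/HB astrocyte-like mice. Its median over VISp oligodendrocyte-like mice was 9.36 CPM, and the part of neuron RNA in its difference was not tested. Of the 11 other glutamine and neutral amino acid carriers, Slc7a8 was higher in CBX than in VISp (3.71 ± 0.78) and MB/HB (3.33 ± 0.90). Slc38a5 (2.46 ± 0.54) and Slc38a11 (2.12 ± 0.51) were higher and Slc38a2 lower (-2.57 ± 0.86) in MB/HB than in VISp. The 5 endothelial markers summed to 7.11 to 747 CPM in MB/HB and 0.776 to 23.1 in VISp astrocyte-like cells, and their part in these differences was not tested.

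Of 17 glutamate-converting enzymes tested, Got1 (-1.52 ± 0.29), the alanine transaminase Gpt (-1.27 ± 0.37) and the proline oxidase Prodh (-1.08 ± 0.23) were lower and the asparagine synthetase Asns higher (2.79 ± 0.68) in CBX than in VISp. Gpt (-0.93 ± 0.27) and Prodh (-0.56 ± 0.17) were lower in MB/HB. Against MB/HB, CBX cells had less Aldh5a1 (-1.48 ± 0.46), Got1 (-1.22 ± 0.34) and Abat (-1.03 ± 0.32) and more Asns (2.87 ± 0.79). Among 6 mitochondrial carriers, Ucp2 was higher than in VISp in CBX (5.06 ± 0.81) and in MB/HB (2.97 ± 0.60), and Slc25a18, the glutamate carrier, was not called. Of the 8 glutathione genes tested, Ggt7 (-2.95 ± 0.69) and Gclm (-1.42 ± 0.26) were lower in CBX. Ggt7 (-3.49 ± 0.51), Gclc (-1.62 ± 0.34) and Gclm (-0.95 ± 0.19) were lower and Ggt5 higher (1.30 ± 0.41) in MB/HB than in VISp.

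Of the sodium pump and potassium channel genes, which maintain the gradients that drive uptake, Atp1b2 (1.90 ± 0.13) and Kcnj10 (1.75 ± 0.22) were higher and Atp1b1 lower (-5.39 ± 0.51) in MB/HB than in VISp. Atp1b1 was lower in CBX than in VISp as well (-3.57 ± 0.69). Against MB/HB, CBX cells had less Atp1b2 (-1.57 ± 0.21) and Kcnj10 (-1.24 ± 0.34).

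**Figure D5:**
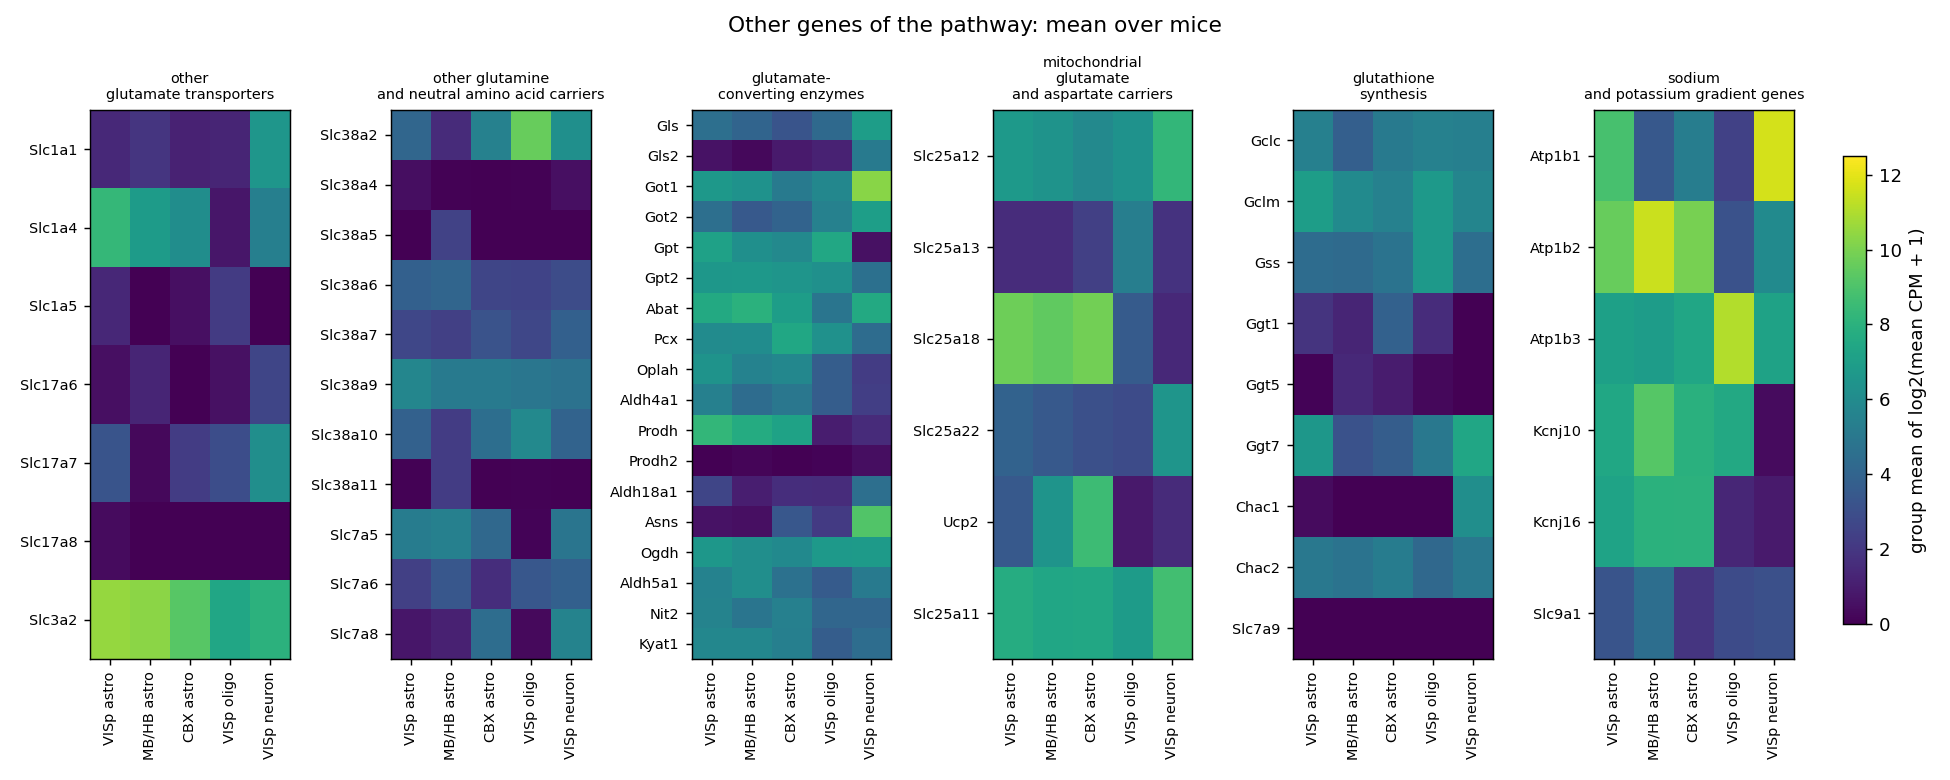
Group mean of log2(mean CPM + 1) over mice for 57 of the 60 other genes of the pathway in 6 lists (rows) and 5 groups of cells (columns; astro, oligo and neuron stand for astrocyte-like, oligodendrocyte-like and neuron-like). Slc25a18 and Atp1b2 are high in the 3 astrocyte-like groups, Slc38a2 and Atp1b3 in oligodendrocyte-like cells and Asns, Got1 and Slc1a1 in neuron-like cells.

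Between oligodendrocyte-like and astrocyte-like cells of VISp, 10 of the 57 pathway genes tested were called higher and 26 lower, beside 21.9% and 36.7% of all genes. Slc38a2, the SNAT2 carrier, was higher in oligodendrocyte-like cells by 5.47 ± 0.35 on the log2 scale, with 822 CPM against 26.6, and Slc38a10 (1.98 ± 0.31) and Slc7a6 (1.07 ± 0.38) were higher too. Slc7a5 (-5.09 ± 0.23), Slc38a6 (-1.32 ± 0.34) and Slc38a9 (-0.86 ± 0.17) were lower. Centring on the median gene adds 0.61 to every gene of this comparison, so small differences depend on the scale. Calls of the pathway genes with centred values are not given. Slc1a4 fell by 7.56 ± 0.24 and Slc3a2 by 3.10 ± 0.10. Of the enzymes, Prodh (-7.23 ± 0.29), Oplah (-2.74 ± 0.22) and Abat (-2.71 ± 0.26) led 10 lower, and Asns (1.55 ± 0.36), Got2 (0.93 ± 0.22) and Gpt (0.35 ± 0.14) were the 3 higher.

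Mitochondrial carriers split in oligodendrocyte-like cells, with Slc25a18 (-6.16 ± 0.29), Ucp2 (-2.65 ± 0.36) and Slc25a22 (-1.12 ± 0.37) leading 5 lower and Slc25a13 higher (3.79 ± 0.29). Of the glutathione genes, Gss was higher (2.31 ± 0.20) and Ggt7 (-1.61 ± 0.16) and Chac2 (-0.81 ± 0.20) lower. Of the pump genes, Atp1b2 (-6.44 ± 0.22) and Atp1b1 (-6.43 ± 0.31) were lower and Atp1b3 (3.97 ± 0.09) higher.

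In neuron-like against astrocyte-like cells, 18 of 57 were called higher and 18 lower, beside 28.8% and 19.6% of all genes. The neuronal glutamate transporter Slc1a1 was higher by 5.17 ± 0.62, and the vesicular transporters Slc17a7 (2.93 ± 0.89) and Slc17a6 (2.10 ± 0.58) were higher. Slc17a6 was uneven, at 0, 5.33 and 36.7 CPM in the neuron-like cells of the 3 mice. These cells had far more of Gad1 (1792 to 2272 CPM) and Gad2 (560.2 to 1220), the enzymes of GABA synthesis, than of Slc17a7 (26.9, 47.1 and 281.8 CPM). Asns (8.51 ± 0.71), the glutaminase Gls2 (4.53 ± 0.56) and the aspartate transaminase Got1 (3.60 ± 0.24) led the enzymes that were higher, and Prodh (-6.70 ± 0.57), Gpt (-6.62 ± 0.28) and Oplah (-4.19 ± 0.44) those that were lower. Chac1, a glutathione-degrading enzyme, was higher (5.82 ± 0.36) and Gclm lower (-1.27 ± 0.23). Slc7a8 was higher by 4.84 ± 0.49 and Slc38a2 by 2.11 ± 0.70, and Slc38a9 fell by 1.03 ± 0.33. Slc25a22 (2.56 ± 0.72), Slc25a12 (1.59 ± 0.26) and Slc25a11 (0.99 ± 0.19) were higher and Slc25a18 (-8.28 ± 0.57) and Ucp2 (-1.97 ± 0.72) lower. The pump gene Atp1b1 (2.86 ± 0.62) was higher and Kcnj10 (-7.07 ± 0.25) and Kcnj16 (-6.34 ± 0.64) lower.

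Against oligodendrocyte-like cells, 23 of 57 were called higher in neuron-like cells and 15 lower, beside 32.2% and 14.7% of all genes. Centring on the median gene shifts every gene of this comparison by -0.61, and calls of the pathway genes with centred values are not given. Slc1a1 (5.30 ± 0.62), Slc1a4 (4.61 ± 0.47) and Slc17a7 (3.23 ± 0.88) led the transporters, Slc7a8 (5.31 ± 0.49) and Slc7a5 (4.73 ± 0.46) the carriers, and Asns (6.97 ± 0.71), Got1 (4.48 ± 0.23) and Gls2 (3.95 ± 0.56) the enzymes. Lower were Slc38a2 (-3.36 ± 0.70) and Slc38a10 (-1.88 ± 0.62), and among enzymes Gpt (-6.97 ± 0.28), Pcx (-1.93 ± 0.32) and Gpt2 (-1.66 ± 0.31). Slc38a2 thus took a different order from Slc38a1 over the VISp classes: it stood at 822 CPM in oligodendrocyte-like, 75.3 in neuron-like and 26.6 in astrocyte-like cells, while Slc38a1 was highest in neuron-like cells. Every pathway gene named here as higher or lower was called in limma, and the comparisons between classes share the mice of each class.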

How the data were processed

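Single cells sorted from 47 mice were sequenced as SMARTerv4 libraries. The authors deposited a table of CPM values per cell, aligned with STAR to mm10 per the submitters' processing notes; the counting of genes is not given in the sources used here. Each of the 2040 cells sums to 1000000 CPM, and all 9484843 positive values examined were whole multiples of 1 read within 0.001 reads (whole reads recovered), with a median of 434102 reads per cell.

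A panel of 5426 of the 32245 gene columns was used, 143 from gene lists and 5283 drawn at random. Cells were clustered with Python 3.11.15, scikit-learn 1.9.0 and leidenalg 0.10.2 (2000 variable genes, 30 principal components, 15 neighbours, resolution 1), leaving out the 8 genes and the pathway lists, and clusters were named by at least 3 markers. No doublet caller was run; cells with over 50% of another list's markers were left out in an alternative, and 36 cells stayed unnamed. Mean CPM per mouse and class (at least 10 glial or 5 neuron-like cells) was tested as log2(CPM + 1) with limma 3.58.1 in R 4.3.3, among genes at 1 CPM or more in at least 2 mice, after a test on simulated data. Tissues were fitted together, and so were classes. Of the class samples, 3 mice gave 2 classes each; the deviations of their samples from the class means correlated at -0.018 to 0.026, and the mouse was a block in an alternative. From each pathway list, up to 3 called genes per direction and comparison with the largest change were named; some genes of the lists are not reported here. The members and lists were chosen with earlier results of these data known.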

Additional observations from a re-analysis of the deposited data

How the results depend on the processing

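Of 36 differences of the 8 genes that were called, 30 were called under every alternative and 6 were lost or reversed under some. Of the 12 that were not called, 1 kept its direction and stayed uncalled throughout. The number of the 8 genes called stayed within 5 to 7 for CBX against VISp, 4 to 5 for MB/HB against VISp, 5 to 6 for CBX against MB/HB, 6 to 7 and 7 to 8 for oligodendrocyte-like and neuron-like against astrocyte-like cells, 4 to 6 for neuron-like against oligodendrocyte-like cells and 0 among vectors.

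Averaging log2 values of single cells in place of CPM moved the share of all genes called to 26.7% (22.8% higher, 3.92% lower) for CBX against VISp, 29.7% (25.4% and 4.32%) for CBX against MB/HB, 73.8% (62.1% and 11.7%) for neuron-like against astrocyte-like and 72.03% (63.4% and 8.64%) for neuron-like against oligodendrocyte-like cells, from 11.8%, 10.1%, 48.4% and 46.9%. It reversed Glud1 to 0.47 for CBX against VISp, -0.26 for MB/HB against VISp, 0.73 for CBX against MB/HB and 1.33 for neuron-like against oligodendrocyte-like cells, where Slc1a2 turned to 0.045. Leaving out 1 mouse gave 5.97% to 12.98% for CBX against VISp (5.97% without MouseID-651221 and 6.93% without MouseID-614198) and 4.77% to 11.1% for CBX against MB/HB (4.77% and 5.76%). Among vectors, 0.309% of genes were called in astrocyte-like cells without a filter. In oligodendrocyte-like cells the share of 0.0318% became 0% with a pseudocount of 0.1 CPM, classes called in each cell, resolution 0.5, larger minimum cell numbers or summed reads, 0.0666% within AB plates, 0.0637% with the plate prefix as a covariate, and 0% to 0.704% when 1 mouse was left out (0.704% without MouseID-638254). The cause was not tested.

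Slc1a6 for MB/HB against VISp, 0.01 in the report, turned to -0.031 with averaged log2 values, -0.34 without cells carrying RNA of another class, -0.039 within AB plates and -0.039 with the plate prefix as covariate, and lay between -0.35 and 0.61 without 1 mouse. Centring on the median gene shifted values by 0.61 for oligodendrocyte-like against astrocyte-like, -0.61 for neuron-like against oligodendrocyte-like cells and 0.15 for CBX against VISp. It turned Glul to 0.23 for oligodendrocyte-like against astrocyte-like and Slc7a11 to -0.15 for neuron-like against oligodendrocyte-like cells. The higher and lower calls became 6.73% and 5.48% of genes for CBX against VISp (5.30% and 6.52% without centring), 5.30% and 5.17% for CBX against MB/HB (4.48% and 5.64%), 47.7% and 20.8% for oligodendrocyte-like against astrocyte-like (21.9% and 36.7%) and 20.7% and 26.1% for neuron-like against oligodendrocyte-like cells (32.2% and 14.7%). With smaller minimum cell numbers, neuron-like against oligodendrocyte-like cells gave 1.51 for Slc1a2 and 1.23 for Slc38a3. Without 1 neuron-like mouse, Slc1a2 ranged there from -0.96 (without MouseID-614201) to 0.80 (without MouseID-651227).

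With the mouse as a replicate block, 7, 8 and 5 of the 8 genes and 58.6%, 48.5% and 46.9% of all genes were called in the 3 class comparisons, and no call of the 8 genes changed. The planned edgeR count model was not run; limma on summed reads took its place, chosen after seeing the data, as were the fits without the 6 MB/HB cells and those leaving out mice among vectors. Comparisons of CBX and of neuron-like cells rest on 2 and 3 mice, and a gene under a few CPM rests on single reads in few cells.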
